A study of Mus musculus with 6 samples.

Results

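The comparison set every array given 18 µl of lentivirus against every array given 6 µl, with the virus, STC1 shRNA or non-targeting shRNA, kept as a covariate. It took in all 6 of the 6 samples of the series, 3 at each volume. The cells were 4T1ch9, a single clone derived from 4T1, a mammary carcinoma line of BALB/c mice. A short hairpin RNA (shRNA) was delivered by lentiviral particles, and the transduced cells were kept in puromycin for 5 to 6 days before total RNA was taken. At 18 µl there were 2 arrays of cells given the STC1 shRNA virus and 1 array of cells given the non-targeting virus. At 6 µl there were again 2 arrays with the STC1 shRNA virus and 1 with the non-targeting virus. All 6 samples thus carried a vector and a hairpin, and all had been through puromycin. Untransduced cells were not analysed here, and the labels give a volume, not a number of infectious particles per cell. The labels do not say that the STC1 arrays of a volume came from separate cultures, so the p-values below measure the scatter among these 6 samples only, and that scatter may be technical.

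A lentiviral vector enters the cell, copies its RNA genome into DNA and inserts that DNA into the host's chromosomes. More vector per cell can mean more insertions per cell and more of the encoded hairpin. The hairpin is cut by the microRNA machinery into a guide strand, and the guide directs destruction of a matching messenger RNA. Cells can also sense viral nucleic acid and answer with interferon-stimulated genes, and puromycin, which ends protein chains early, kills cells without the resistance gene carried by the vector. These properties bear on some of the gene groups examined below. All the groups and their members were chosen with earlier results of these data known.

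Mean raw signal per array lay between 253.1 and 254.2 at 18 µl and between 228.3 and 310.6 at 6 µl, and between 16252 and 17507 of 45281 probes were above background on an array. The number of arrays limits the precision. The cells carried epithelial keratins: Krt8 averaged a log2 intensity of 12.51 at 18 µl and 12.62 at 6 µl, and Krt18 averaged 11.18 at 18 µl and 11.35 at 6 µl. The epithelial adhesion molecule Epcam and the keratin Krt19 were not above background on any array. Of 7 leukocyte markers with a named probe, 5 were above background on no array, the pan-leukocyte Ptprc among them. Of 8 endothelial markers 6 were above background on no array, and of 9 fibroblast markers 6 were not, including the collagens Col1a1, Col1a2 and Col3a1. The fibroblast-associated receptor Pdgfra was well detected, with means of 9.93 at 18 µl and 10.22 at 6 µl.

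No probe passed the test for a difference between 18 and 6 µl, out of 18076 tested with limma and Benjamini-Hochberg adjustment (0% called in either direction, smallest adjusted p = 0.2642). At an unadjusted p under 0.05 there were 1415 probes, 7.83% of those tested, of which 617 (3.41%) were higher and 798 (4.41%) lower at 18 µl. The median standard error of a log2 difference was 0.119, and the median half-width of its 95% interval was 0.272. That interval lay within a change of 1 log2 unit, a doubling or halving, for 17986 probes (99.5%), and within 0.5 log2 units for 14129 probes (78.2%). These intervals are unadjusted and do not set the limit of detection with 6 arrays. After adjustment, differences far larger than the half-width did not pass either. An example is the gene Syne2, at −1.03 ± 0.15 (SE; limma adjusted p = 0.319). In RNA from whole cultures, fewer cells with a transcript and less of it per cell cannot be told apart. In the same model the virus, STC1 against non-targeting, gave 1439 probes that passed (7.96%).

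The volume difference was about as large as the difference between arrays of the same kind. Across the tested probes, the SD of the log2 difference between single arrays was 0.302 and 0.242 for the same-numbered STC1 arrays at 18 and 6 µl, and 0.254 for the non-targeting array at 18 µl against that at 6 µl. Between the 2 STC1 arrays of one volume it was 0.283 at 18 µl and 0.238 at 6 µl. The volume difference of the STC1 arrays and that of the non-targeting arrays share no array, and across the 18076 probes they had a Pearson r of 0.171 and a Spearman rho of 0.149, with the same sign in 55.7%. Probes are not independent replicates, and all arrays were normalised together. The plot of volume differences by virus shows the sterol and hypoxia genes, described below, mostly above and to the right of 0.

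**Figure D1:**
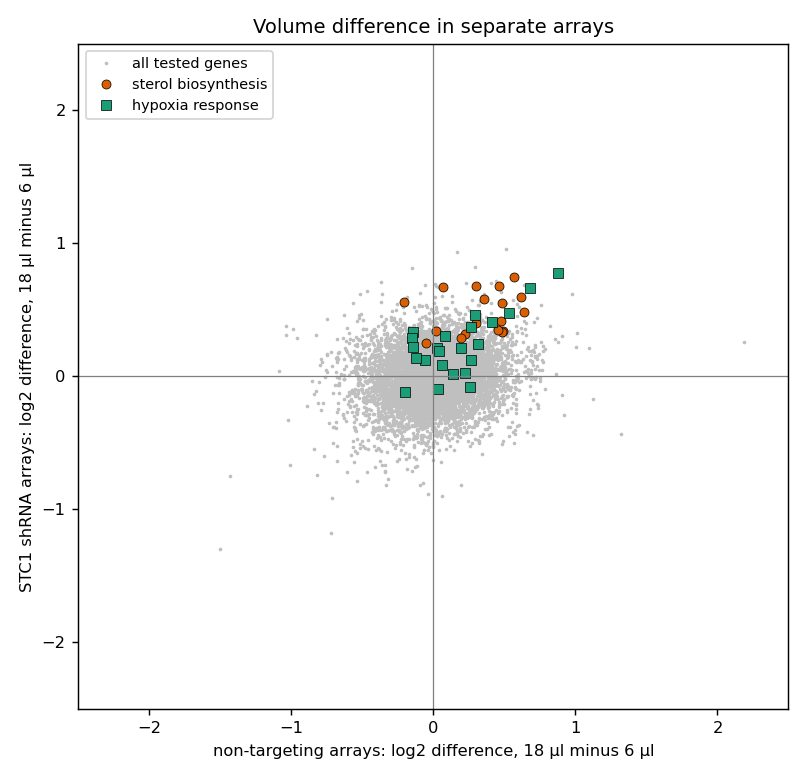
Log2 difference between 18 and 6 µl for each of 9754 tested genes, in the STC1 arrays (vertical axis, mean of 2 arrays minus mean of 2 arrays) and in the non-targeting arrays (horizontal axis, 1 array minus 1 array). Orange circles are 18 sterol biosynthesis genes and green squares 23 hypoxia response genes, and 16 of the sterol genes lie right of 0 while all 18 lie above 0.

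Stc1, which encodes the secreted glycoprotein stanniocalcin 1 and is the target of the hairpin, was read first. Its log2 intensity at 18 µl was 8.05 and 7.74 on the STC1 arrays and 9.32 on the non-targeting array, against 7.68 and 7.87 with STC1 and 9.05 with the non-targeting virus at 6 µl. The 4 STC1 arrays lay below both non-targeting arrays at either volume, and among the STC1 arrays the 2 volumes overlapped. The difference of 18 over 6 µl was 0.17 ± 0.12 (SE; 95% interval −0.11 to 0.45; limma adjusted p = 0.776), so the larger volume did not bring a lower Stc1 level that these arrays could resolve. Stc2, its paralog, was not well above background on any array at 18 µl and was above it on all 3 at 6 µl. Its measured difference was −0.28 ± 0.12 (SE; limma adjusted p = 0.623). By what lay above background, its measured mean was at least 1.07-fold higher at 6 µl, a bound that leaves out sampling error.

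Genes of sterol biosynthesis had the largest median difference of the lists with 5 or more tested genes. Cells make cholesterol from acetyl-CoA through mevalonate, squalene and lanosterol, and the transcription factor SREBP2 drives most of the enzymes when membrane sterol is low. Of 24 listed genes 18 were tested, and the others were not analysed here. In the counts and medians of every list each gene is represented by its brightest tested probe, and other probes are given as further probes. Their log2 differences of 18 over 6 µl were above 0 in 18 of 18, against 53.2% of all tested genes, with a median of 0.42 against 0.011 over all genes. None passed the adjusted test. At an unadjusted p under 0.05, 12 of the 18 were higher at 18 µl and 0 lower, where 3.15% of all genes were higher and 3.34% lower. In 10 of the 18 all 3 arrays at 18 µl lay above all 3 at 6 µl, as in 4.56% of all genes, and in 0 all 3 lay below, as in 3.72% of all genes.

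The promoters of these genes are shown because the members differed in the same direction. RefSeq tables (GRCm38.p6) held the 250 bases upstream of the start for 15 of the 18 genes. Each stretch is written along the gene's own strand, with the CCAAT box, or its reverse complement, in capitals. CCAAT is the letter pattern of NF-Y, a factor that works beside SREBP on many sterol gene promoters.
Nsdhl, chrX:72918392-72918436, plus strand: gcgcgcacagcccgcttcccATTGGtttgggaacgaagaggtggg
Mvd, chr8:122443458-122443502, minus strand: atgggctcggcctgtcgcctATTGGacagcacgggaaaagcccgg
Cyp51, chr5:4104702-4104746, minus strand: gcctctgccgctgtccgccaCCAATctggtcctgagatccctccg
Insig1, chr5:28071176-28071220, plus strand: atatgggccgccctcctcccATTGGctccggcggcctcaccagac
Searched on both strands, CCAAT stood upstream of 15 of the 15 genes (100%). The share was 40.8% of 7994 tested genes with such a stretch and 37.5% of 27025 genes in the table. A gene with several starts was counted once, where any of its stretches held a match. A form of the sterol element, TCACNCCAC, stood in 0 of 15, against 1.13% of the tested genes. A match to letters is a description of the sequence, not a binding site. Such counts, here and for the lists below, use no array values. They describe genes listed for a known role and bear on no difference between the volumes.

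The early enzymes, up to farnesyl diphosphate, were Mvk, Pmvk, Mvd, Idi1 and Fdps. Mvd, which makes isopentenyl diphosphate, read 7.68 and 7.14 on the STC1 arrays and 7.15 on the non-targeting array at 18 µl, and 6.71, 6.91 and 6.53 on the same kinds of array at 6 µl. All 3 arrays at 18 µl were above all 3 at 6 µl, and the difference was 0.60 ± 0.15 (SE; 1.52-fold; limma adjusted p = 0.571). Mvk, mevalonate kinase, read 5.76 and 5.39 with STC1 and 5.44 with the non-targeting virus at 18 µl, and 5.05, 5.26 and 4.96 in that order at 6 µl. These groups did not overlap either, with a difference of 0.44 ± 0.13 (SE). Fdps, which joins isoprene units, differed by 0.53 ± 0.14, although a second, dimmer Fdps probe differed by 0.08 ± 0.13. Idi1, the isomerase of the pathway, differed by 0.47 ± 0.20 and Pmvk, the next kinase, by 0.39 ± 0.19.

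The enzymes from squalene to cholesterol were led by Nsdhl, which removes a methyl group of the sterol ring. Nsdhl read 7.96 and 7.45 with STC1 and 7.77 with the non-targeting virus at 18 µl, and 7.09, 6.82 and 7.20 in that order at 6 µl. The 3 arrays at 18 µl all lay above the 3 at 6 µl, and the difference was 0.69 ± 0.15 (SE; 1.61-fold; limma adjusted p = 0.571). Its 3 further probes gave 0.73, 0.50 and 0.50. Lss, which closes squalene into lanosterol, differed by 0.61 ± 0.19, and a dim second Lss probe by −0.01. Cyp51, lanosterol demethylase, differed by 0.56 ± 0.17, and Hsd17b7, a sterol ketone reductase, by 0.51 ± 0.15. Tm7sf2, a sterol reductase, differed by 0.39 ± 0.14 and Sqle, squalene epoxidase, by 0.29 ± 0.11. A second Sqle probe gave 0.14 ± 0.19, with 0.24 in the STC1 arrays and −0.05 in the non-targeting arrays. Smaller values came from the reductase Dhcr7 (0.37 ± 0.20), the methyl oxidase Msmo1 (0.31 ± 0.19), the isomerase Ebp (0.24 ± 0.13) and the desaturase Sc5d (0.15 ± 0.13). By the brightest probe of each gene, Msmo1 and Sc5d were the 2 of the 18 with a difference below 0 in the non-targeting arrays. The values were −0.21 for Msmo1 and −0.05 for Sc5d.

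Among regulators and carriers, Insig1, which holds SREBP in the endoplasmic reticulum and is itself an SREBP target, read 10.47 and 10.56 with STC1 and 10.42 with the non-targeting virus at 18 µl. At 6 µl Insig1 read 10.15 and 10.17 with STC1 and 9.97 with the non-targeting virus. The volumes did not overlap, the difference was 0.39 ± 0.10 (SE; limma adjusted p = 0.571), and 3 further probes gave 0.28, 0.21 and 0.21. Stard4, a carrier of cholesterol between membranes, read 9.77 and 9.57 with STC1 and 9.53 with the non-targeting virus at 18 µl, and 9.28, 9.10 and 8.89 in that order at 6 µl. Its arrays at 18 µl were again all above those at 6 µl, with a difference of 0.53 ± 0.11 (SE; limma adjusted p = 0.571). Srebf2, the gene of SREBP2, differed by 0.25 ± 0.13, with 0.31 at a second probe.

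The size of the sterol difference rested unevenly on the arrays. Averaged over the 18 genes and set against the mean of the arrays with the same virus, the level was 0.46 and 0.02 on the STC1 arrays and 0.16 on the non-targeting array at 18 µl, and −0.23, −0.25 and −0.16 in that order at 6 µl. STC1 replicate 1 at 18 µl was the highest of the 6 and STC1 replicate 2 at 18 µl lay closest to its 6 µl partners. STC1 replicate 1 at 18 µl also had the fewest probes above background of the 6 arrays (16252), and the part of this in the result was not tested. Without STC1 replicate 1 at 18 µl the median of the list was 0.31, with 18 of 18 above 0. The median was 0.45 in the STC1 arrays and 0.41 in the non-targeting arrays. The plot of members by array shows this spread gene by gene.

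**Figure D2:**
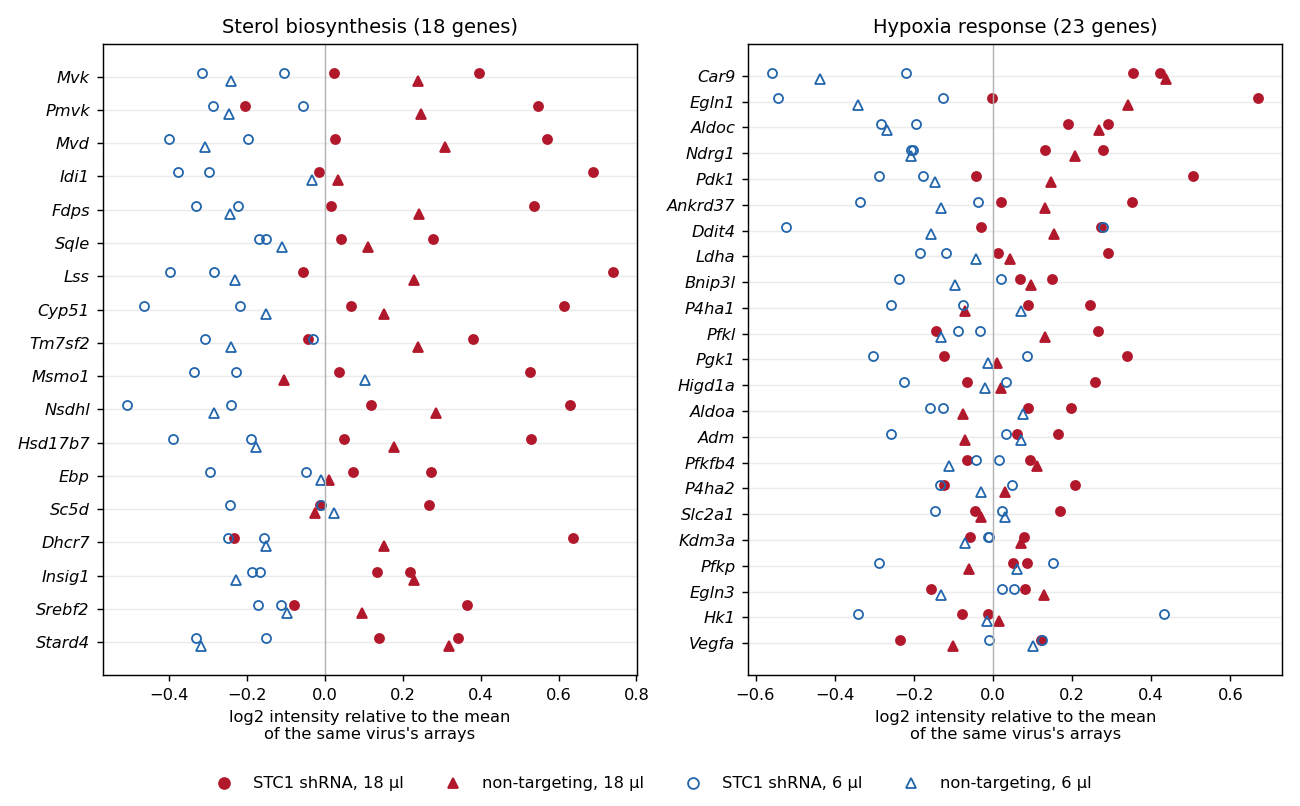
Log2 intensity of 18 sterol biosynthesis genes (left, in pathway order) and 23 hypoxia response genes (right, by size of difference) on each array, relative to the mean of the arrays with the same virus. Red filled symbols are arrays at 18 µl and blue open symbols arrays at 6 µl, circles for STC1 shRNA and triangles for the non-targeting shRNA. Red symbols lie mostly right of blue ones for the sterol genes and for the upper hypoxia genes, with STC1 replicate 1 at 18 µl often farthest right.

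Genes of the hypoxia response formed the list with the next largest median. When oxygen is short, hypoxia-inducible factors escape hydroxylation and switch on genes of glycolysis, pH control and oxygen sensing through sites with the core letters ACGTG. Of 29 listed genes 23 were tested, and 21 of them had a difference above 0, with a median of 0.15, where 53.2% of all tested genes were above 0. At an unadjusted p under 0.05, 6 were higher and 0 lower at 18 µl, against 3.15% higher and 3.34% lower over all genes, and none passed the adjusted test. Without STC1 replicate 1 at 18 µl the median was 0.07, with 19 of 23 above 0.

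Car9, carbonic anhydrase IX of the cell surface, had the smallest adjusted p of the genes higher at 18 µl. It read 6.07 and 6.14 with STC1 and 6.87 with the non-targeting virus at 18 µl, and 5.16, 5.50 and 5.99 in that order at 6 µl. All 3 arrays at 18 µl exceeded all 3 at 6 µl, and the difference was 0.81 ± 0.12 (SE; 95% interval 0.54 to 1.08; 1.75-fold; limma adjusted p = 0.319). A second Car9 probe, above background on all arrays, differed by 0.13 ± 0.14, so the probes disagree. The upstream stretches of Car9 and of Egln1, the main oxygen sensor of the pathway, hold the core, in capitals (Car9 as its reverse complement).
Car9, chr4:43506988-43507025, plus strand: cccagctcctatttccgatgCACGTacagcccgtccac
Egln1, chr8:124949298-124949342, minus strand: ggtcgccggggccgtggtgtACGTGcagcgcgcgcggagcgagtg
ACGTG stood on either strand in 12 of 21 hypoxia genes with an upstream stretch (57.1%), against 25.8% of tested genes and 18.5% of all genes in the table.

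Other hypoxia genes followed Car9 at smaller sizes. Aldoc, a glycolytic aldolase, read 8.69 and 8.59 with STC1 and 8.61 with the non-targeting virus at 18 µl, and 8.20, 8.12 and 8.08 in that order at 6 µl. Its groups did not overlap, and the difference was 0.50 ± 0.10 (SE; limma adjusted p = 0.571). Ndrg1, a stress-responsive gene, read 10.10 and 9.96 with STC1 and 10.04 with the non-targeting virus at 18 µl, and 9.62, 9.62 and 9.62 in that order at 6 µl. The difference of Ndrg1 was 0.41 ± 0.10, again with no overlap, and 0.18 at a second probe. Egln1, above background on 3 of 3 arrays at 18 µl and 2 of 3 at 6 µl, differed by 0.67 ± 0.18, with 0.21 and 0.24 at 2 dimmer probes. Pdk1, a kinase that slows pyruvate oxidation, differed by 0.41 ± 0.15, and Ankrd37 by 0.34 ± 0.13. Ldha, lactate dehydrogenase A, differed by 0.23 ± 0.12. Vegfa, the angiogenic factor (−0.14 ± 0.12), and the hexokinase Hk1 (−0.05 ± 0.18) were the 2 genes below 0. The value of Hk1 was 0.18 without STC1 replicate 1 at 6 µl.

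Among antioxidant genes and targets of NRF2, a factor that answers oxidants, 22 were tested, 7 had a difference above 0 and 15 below, with a median of −0.07, where 53.2% of all tested genes were above 0. At an unadjusted p under 0.05, 4 were lower and 0 higher at 18 µl, against 3.34% lower and 3.15% higher over all genes, and none passed the adjusted test. The mean over the 22 genes, relative to arrays with the same virus, was −0.15 and 0.04 with STC1 at 18 µl. It was −0.05 on the non-targeting array at 18 µl, and 0.06, 0.05 and 0.05 in the same order at 6 µl. STC1 replicate 1 at 18 µl thus lay lowest, and STC1 replicate 2 lay near the 6 µl arrays. Nqo1, a quinone reductase, read 7.68 and 8.73 with STC1 and 8.31 with the non-targeting virus at 18 µl, and 8.92, 8.82 and 9.32 in that order at 6 µl. All 3 arrays at 18 µl lay below all 3 at 6 µl, but the STC1 arrays at 18 µl were more than 1 log2 unit apart. The Nqo1 difference was −0.78 ± 0.24 (SE; limma adjusted p = 0.571), and a dimmer second probe gave −0.72 ± 0.14. Gsta4, a glutathione transferase, differed by −0.52 ± 0.15. Slc7a11, the cystine importer (−0.36 ± 0.11), and the transferase Gstm1 (−0.49 ± 0.16) had second probes at −0.03 and 0.25. The antioxidant element TGACNNNGC stood on either strand upstream of 4 of 19 genes (21.1%), against 13.9% of tested genes. Nqo1 was not among the 4.

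Lists of genes that read out virus itself had medians near 0. By sign, 53.2% of all tested genes were above 0. The share was lower in retroviral restriction (3 of 13), microRNA and shRNA processing (3 of 12) and viral nucleic acid sensors (4 of 11). Other counts above 0 were 4 of 8 lentiviral cofactors, 6 of 12 MHC class I genes and 11 of 19 inflammatory genes. By the brightest probe of each gene, no member of the following lists had an unadjusted p under 0.05 in either direction, and no probe passed the adjusted test. Of 31 interferon response genes 16 were tested, and their median difference was −0.02, with 7 above 0. The 95% intervals of these 16 probes together ran from −0.70 to 0.58. Of 7 further probes of interferon genes 1 was higher at an unadjusted p under 0.05, a second probe of Ifit2, an interferon-induced inhibitor of translation, at 0.43 ± 0.11, with 0.40 in the STC1 arrays and 0.50 in the non-targeting arrays. Irf1, an interferon-induced transcription factor, read 10.10 and 10.22 with STC1 and 9.85 with the non-targeting virus at 18 µl, and 10.25, 10.32 and 10.09 in that order at 6 µl. Irf1 differed by −0.17 ± 0.10, the GTPase Irgm1 by 0.18 ± 0.11 (second probe 0.00) and Parp14, an ADP-ribosyltransferase, by −0.31 ± 0.17. Further interferon genes, among them Ifit1, Oas1a, Rsad2 and Cxcl10, were above background on no array. The 11 tested sensors of viral nucleic acid had a median of −0.02, and of 6 further probes 1 had an unadjusted p under 0.05, for the transcription factor Irf3 at 0.39 ± 0.14, against −0.06 at another Irf3 probe. Eif2ak2, the kinase activated by double-stranded RNA, read 9.85 and 9.78 with STC1 and 9.46 with the non-targeting virus at 18 µl, and 9.99, 9.95 and 9.48 in that order at 6 µl, a difference of −0.11 ± 0.10.

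The 13 tested genes of retroviral restriction and proviral silencing had a median of −0.03, with Zc3hav1, which binds viral RNA, at 0.29 ± 0.17 and the membrane protein Ifitm1 at −0.17 ± 0.12. A further probe of Samhd1, which depletes the nucleotides that reverse transcription needs, gave 0.33 ± 0.11 (unadjusted p under 0.05), and another 0.06. The 8 tested host cofactors of lentiviral entry and integration had a median of −0.01. By the brightest probe of each gene, their smallest p belonged to Smarcb1, a chromatin remodeller that binds the viral integrase, with a difference of −0.24 ± 0.12. Of their 9 further probes 1, for Cpsf6, had an unadjusted p under 0.05, and it was above background on no array at 18 µl. Its measured difference was −0.47 ± 0.10, and the other further Cpsf6 probes gave 0.01, 0.09 and −0.14. The 12 tested genes of microRNA and shRNA processing had a median of −0.05. The 3 of these with the smallest p were Tnrc6b, Tnrc6c and Tnrc6a, scaffolds that silence the targets of Argonaute, at −0.20 ± 0.12, −0.18 ± 0.11 and −0.16 ± 0.11. The 12 tested genes of MHC class I antigen processing had a median of 0.01, and 19 inflammatory and NF-kB target genes one of 0.01. In the inflammatory list the inhibitor Nfkbia differed by −0.24 ± 0.11 and the deubiquitinase Tnfaip3 by 0.26 ± 0.13. Among the 6 further probes of that list 1 was higher and 1 lower at an unadjusted p under 0.05. The higher one, for Il23a, gave 0.40 ± 0.12 and was above background on 2 arrays at 18 µl and none at 6 µl. The lower one, for Tnfaip2, gave −0.29 ± 0.11.

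Genome damage and cell cycle lists also had medians near 0. The cells are p53-deficient, so targets of p53 cannot report a p53 response to genome damage here. The 18 tested p53 targets had a median of −0.05 and the 16 tested genes of DNA break signalling and repair one of −0.06, with no unadjusted p under 0.05 in either by the brightest probe of each gene. Their further probes included 2 higher and 1 lower of 21 for p53 targets at an unadjusted p under 0.05, and 0 higher and 2 lower of 18 for DNA breaks. They were probes of the death receptor Tnfrsf10b (0.57 ± 0.14), the cyclin Ccng1 (0.44 ± 0.15) and the repair gene Ddb2 (−0.38 ± 0.12), and of the kinases Prkdc (−0.28 ± 0.11) and Chek2 (−0.27 ± 0.11). The brightest Ccng1 probe had −0.25 ± 0.13, so the Ccng1 probes disagree. Nhej1 and Lig4, which join broken ends, differed by −0.25 ± 0.11 and −0.23 ± 0.11. Mitosis (20 genes, median −0.03) and DNA replication (33 genes, median 0.01) also had no member with an unadjusted p under 0.05 by the brightest probe. Of 18 further mitosis probes 1 was higher and 1 lower at that p, for Cdk1 (0.31 ± 0.10) and Top2a (−0.25 ± 0.10), and of 26 further replication probes 1 was higher and 2 lower, among them Rrm2 (0.46 ± 0.12) and Lig1 (−0.35 ± 0.15). The mitotic kinase Ttk differed by −0.20 ± 0.10. The 35 tested cytosolic ribosomal protein genes had a median of 0.04. The 24 tested ribosome biogenesis genes had a median of 0.15, but 0.001 without STC1 replicate 1 at 18 µl, and the polymerase I subunit Polr1a differed by −0.27 ± 0.11, with −0.02, −0.03 and −0.19 at further probes. The plot of list medians places all these lists beside the sterol and hypoxia lists.

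**Figure D3:**
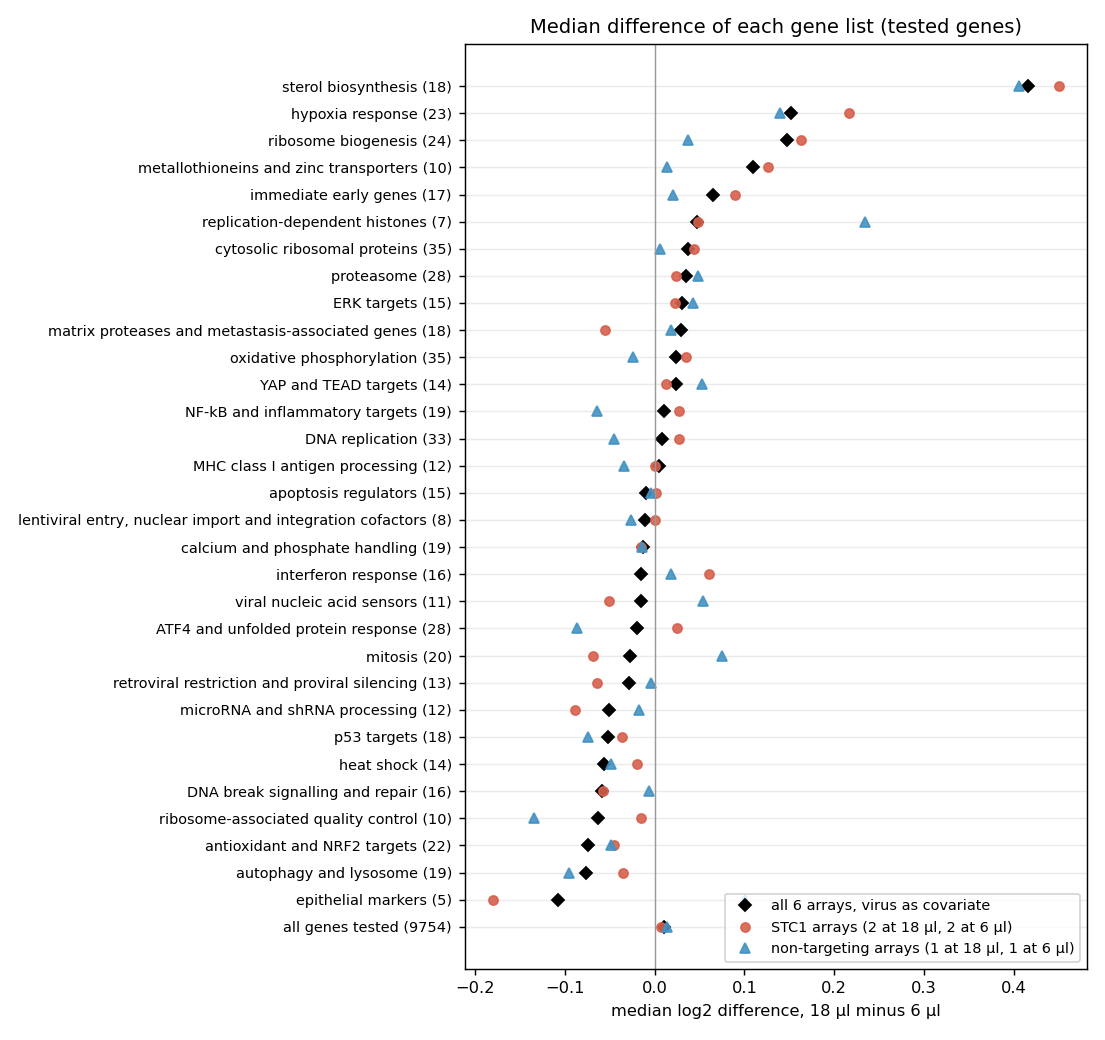
Median log2 difference between 18 and 6 µl over the tested genes of each list with at least 5 of them (number in brackets), with all tested genes in the lowest row. Diamonds use all 6 arrays with the virus as covariate, circles the STC1 arrays and triangles the non-targeting arrays. Sterol biosynthesis lies at 0.42 by all 6 arrays and hypoxia response at 0.15, while all tested genes lie at 0.011.

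Genes that bear on puromycin gave single values. Of 4 tested drug efflux pumps, Abcc5 differed by 0.37 ± 0.11 and Abcc4 by −0.24 ± 0.10, and Abcb1b, a P-glycoprotein, by 0.23 ± 0.11. Of 10 tested genes of ribosome-associated quality control, which clears stalled ribosomes, Map3k20, the kinase that senses colliding ribosomes, differed by −0.32 ± 0.11. Its 5 further probes gave −0.19, 0.01, 0.04, −0.02 and 0.04. Ltn1, a ubiquitin ligase for stalled chains, differed by −0.22 ± 0.10. In the ATF4 and unfolded protein list 28 genes had a median of −0.02, and the folding enzyme Pdia4 differed by −0.27 ± 0.12. In the matrix and metastasis list the integrin Itgb4 differed by −0.50 ± 0.15 (second probe −0.12 ± 0.16), the matrix protein Sparc by 0.31 ± 0.11 (further probes 0.06 and 0.12) and the protease Plau by 0.36 ± 0.14. Among epithelial genes the adhesion molecule Cdh1, above background on 3 of 3 arrays at 18 µl and 1 of 3 at 6 µl, differed by 0.46 ± 0.15, and the tight junction gene Cldn3 differed by 0.35 ± 0.12, while Krt8 was at −0.11 ± 0.15 and Krt18 at −0.16 ± 0.16.

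Beyond the lists, the genes with the smallest p-values that kept their direction in both viruses are given as values, since none passed. They were chosen to have no overlap between the volumes within either virus. Among all 9754 genes, 1088 (11.2%) were higher at 18 µl within each virus with no overlap and 987 (10.1%) were lower in that way. Kcnq1ot1, a long noncoding RNA that silences an imprinted region, read 5.35 and 5.44 with STC1 and 4.71 with the non-targeting virus at 18 µl, and 6.16, 6.11 and 5.53 in that order at 6 µl. Its arrays at 18 µl were all below those at 6 µl, with a difference of −0.77 ± 0.10 (SE; limma adjusted p = 0.264). Kcnq1ot1 was above background on 2 of 3 arrays at 18 µl and 3 of 3 at 6 µl. Syne2, which links the nuclear envelope to the cytoskeleton, read 6.79 and 7.11 with STC1 and 6.73 with the non-targeting virus at 18 µl, and 8.31, 7.95 and 7.45 in that order at 6 µl. The Syne2 groups did not overlap, and the difference was −1.03 ± 0.15 (SE; limma adjusted p = 0.319), with −0.83, 0.00 and −0.03 at 3 dimmer probes.

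Prl2c2, a proliferin with near-identical relatives whose transcripts a probe may share, differed by −0.98 ± 0.15, against −0.20 at a second probe. Id3, an inhibitor of helix-loop-helix factors, differed by −0.61 ± 0.10. Slc14a1, a urea transporter, differed by −0.51 ± 0.11, with −0.55 and −0.58 at its 2 other probes, so its probes gave like values. Acvr2a, an activin receptor, differed by −0.57 ± 0.11, the splicing factor Rbm25 by −0.59 ± 0.13, Sbf2 by −0.59 ± 0.11 and Sash1 by −0.49 ± 0.10 (second probe 0.17). The brighter Sash1 probe was above background on 2 of 3 arrays at 18 µl and 3 of 3 at 6 µl. Nmb, Larp7 and Tmem80 were not well above background on any array at 18 µl. By what lay above background, their measured means at 6 µl were at least 1.18-fold, 1.25-fold and 1.496-fold higher. These bounds leave out sampling error, and none of these genes passed the adjusted test. A second Larp7 probe gave 0.23. The smallest p of any probe belonged to an Ifngr2 probe, for a chain of the interferon gamma receptor, at −0.90 ± 0.11 (limma adjusted p = 0.264). Other Ifngr2 probes gave −0.39 and −0.41, and a like-ranked Spsb4 probe at −0.82 was set against −0.15 at a brighter one. Scara5, a scavenger receptor, was named after its values were seen, since it had the largest difference below 0 of any gene (−1.37 ± 0.33; adjusted p = 0.571). It read 6.31 and 7.89 with STC1 and 6.69 with the non-targeting virus at 18 µl, and 8.38, 8.42 and 8.19 in that order at 6 µl.

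Among genes with values above 0, Scarb1, a receptor that takes up cholesterol from lipoproteins, read 5.02 and 5.00 with STC1 and 5.56 with the non-targeting virus at 18 µl, and 4.51, 4.41 and 5.05 in that order at 6 µl. Scarb1 was above background on 3 of 3 arrays at 18 µl and 1 of 3 at 6 µl. Within each virus the 18 µl arrays were above the 6 µl arrays, as the choice of genes required, with a difference of 0.54 ± 0.10 (SE; limma adjusted p = 0.567). Rgcc, a cell cycle regulator, differed by 0.74 ± 0.16, the chemokine Ccl9 by 0.65 ± 0.15 and the receptor adaptor Grb7, above background on 2 of 3 arrays at 6 µl, by 0.61 ± 0.13. Fgfbp1, which releases growth factors from the matrix, differed by 0.55 ± 0.11 and the peptide hormone Insl3 by 0.56 ± 0.13. Ifna1, one of a family of near-identical interferon genes, differed by 0.57 ± 0.10 at 1 probe, above background on 3 of 3 arrays at 18 µl and 1 of 3 at 6 µl, and 0.12 at another. The glutamate receptor subunit Grik5 differed by 0.50 ± 0.11 and by −0.16 at a second probe. The plot of named genes shows the value in each virus beside the joint interval.

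**Figure D4:**
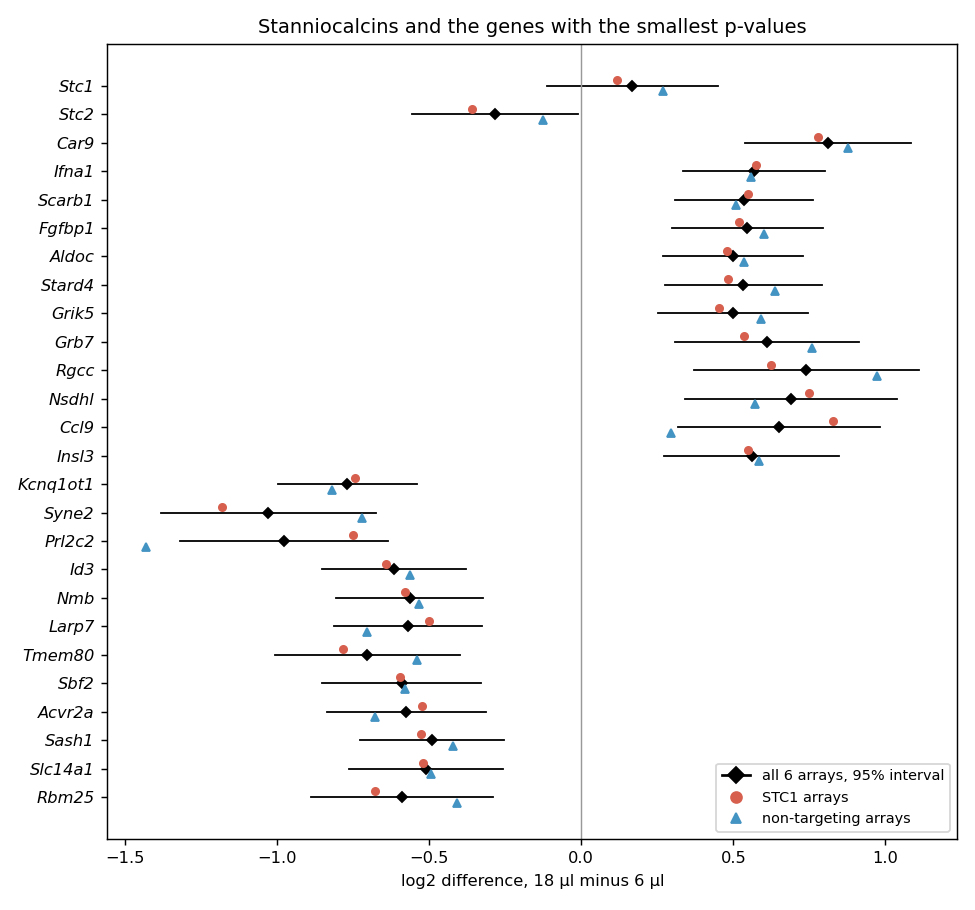
Log2 difference between 18 and 6 µl for Stc1, Stc2 and the 12 genes each way with the smallest p-values. Diamonds with lines are the estimate and its 95% interval from all 6 arrays, circles the STC1 arrays and triangles the non-targeting arrays. Each of the 24 genes was chosen to have both viruses on the same side of 0, and Stc1 is the only one shown whose interval crosses 0.

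No probe passed the test of whether the volume difference itself differed between the viruses (0% called, limma adjusted p = 1 for every probe, 773 probes or 4.28% at an unadjusted p under 0.05). The median standard error of that difference was 0.26, since the non-targeting virus had 1 array at each volume. The smallest p-values with a larger value in the STC1 arrays belonged to Sppl2c (1.34 ± 0.27), the ciliary gene Ift57 (1.42 ± 0.30) and the nuclear receptor Nr5a2 (1.35 ± 0.30). Those with a smaller value belonged to the kinase Nuak1 (−1.93 ± 0.32), the folding enzyme Fkbp14 (−1.76 ± 0.33) and the receptor Gpr135 (−1.14 ± 0.24). Nuak1 read 7.04 and 7.43 with STC1 and 6.35 with the non-targeting virus at 18 µl, and 6.79, 7.15 and 4.17 in that order at 6 µl. Its value turned on the non-targeting array at 6 µl, which stood far below the other 5. A second, dimmer Nuak1 probe differed by −0.43 between the volumes, against 0.90 at this one. Of the sterol genes 1 of 18, and of the hypoxia genes 0 of 23, had an unadjusted p under 0.05 in this test, where 3.08% of genes did.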

How the data were processed

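Per the labels' protocols, column-extracted RNA was made into biotinylated cRNA for Illumina bead arrays. The deposited unprocessed table gives a linear intensity per probe and array, with a detection p-value beside it, per the file headers. The deposited processed table holds log2 values. They matched quantile-normalised log2 raw intensities, with a median absolute deviation per array of no more than 0.00015. Scanner software, chips and batches are not given in the sources used here.

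R 4.3.3 with limma 3.58.1 was used. Its neqc function took the background from the detection p-values, which imply 936 negative controls, added an offset of 16 and quantile-normalised the arrays, which removes shifts common to all probes and understates folds of dim probes. Probes with detection p under 0.05 on at least 2 of 6 arrays were tested, 18076 of 45281. The platform annotation named 34885 probes with 1 symbol and 18 with several, 34807 probes matched a RefSeq gene identifier, and 10378 probes were unlisted. The brightest tested probe by mean stood for each of 9754 genes, and 2668 tested probes named no single gene. Volume and virus were fitted with lmFit and eBayes (3 residual and 5.5 prior degrees of freedom). A fit with 4 group means tested how the volume difference differed between viruses. All tests were two-sided, and p-values were adjusted by Benjamini-Hochberg over every tested probe. Where a gene was above background on no array of a volume, its fold is a bound against the lowest signal above background. This bound applies to the measured means and leaves out sampling error.

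Named were Stc1, Stc2, the 12 genes each way with the smallest p, and 3 each way for the difference between viruses. The 12 each way had to keep their sign in the non-targeting pair and in each same-numbered and crossed STC1 pair. Also named were up to 4 members of a list by p, and members that a count or role called for. Genes named for a further probe were chosen after their values were seen. The members and the 36 lists were chosen with earlier results of these data known. Lists are described by counts and medians without a test. Labels number the STC1 arrays 1 and 2 at both volumes. The deviations of same-numbered arrays correlated at 0.00488 across probes, so the numbers were not taken as pairs. The fit was tested on simulated data. Alternatives covered background, scaling, filter, variance model, covariate, block and each array left out.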

Additional observations from a re-analysis of the deposited data

How the results depend on the processing

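The count of probes that passed for 18 against 6 µl, 0 as reported, stayed at 0 without background correction, with the authors' deposited log2 values, with no filter or detection on all 6 arrays, with the replicate block (smallest adjusted p 0.521), in the STC1 arrays alone, without the virus covariate and with a mean for each virus and volume. It was 71 (10 higher, 61 lower) with each array scaled by its median over all probes. That scaling shifted the median difference of all tested probes to −0.0738 and gave infinite prior degrees of freedom. Car9, Kcnq1ot1, Syne2, Prl2c2, Id3, Tmem80, Sbf2, Rbm25 and Nqo1 were among the 71, and no sterol gene was. Median scaling over the tested probes, chosen after seeing the data, gave 0. A trended, robust variance model gave 1, Syne2 (adjusted p 0.0297). Leaving out single arrays gave 0 to 1. The 1 came without STC1_6ul replicate 1, and the cause was not tested.

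The count for the difference between viruses, 0 as reported, was 2 with median scaling over all probes (Nuak1 −2.05 and Fkbp14 −1.84), and 0 to 1 with single arrays left out, the 1 without STC1_6ul replicate 2. The causes were not tested. The replicate block gave 0, left the Stc1 difference at 0.167 (adjusted p 0.763) and changed no other call. Across all alternatives Stc1 lay between 0.087 and 0.271, the sterol median between 0.308 and 0.607, and the hypoxia median between 0.0688 and 0.217. Of single genes, 3 changed sign with 1 array left out: Hk1 ranged from −0.261 to 0.181, Krt8 from −0.237 to 0.0623 and Krt18 from −0.295 to 0.036. With 1 non-targeting array left out, the volume difference came from the STC1 arrays alone. Signal near background limits the dim genes, and the single non-targeting array per volume limits the difference between viruses.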

Other observations

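The probe with the largest difference in size named no gene here. It read 5.84 and 6.10 with STC1 and 5.65 with the non-targeting virus at 18 µl, and 5.35, 12.35 and 12.20 in that order at 6 µl, a log2 difference of −4.11. The 6 µl group thus held values of both kinds, and STC1 replicate 1 at 6 µl read like the 18 µl arrays. Another 2 unnamed probes had the largest values above 0, 1.14 and 1.09. Of the 31 listed interferon genes 29 had a named probe, and 13 of these did not reach background on enough arrays to be tested.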
